A study of Homo sapiens with 40 samples.

Results

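RNA of 8 genes of the insulin receptor feedback on phosphoinositide 3-kinase (PI3K) and AKT was followed in HER2-positive breast cancer cells: the receptors INSR and IGF1R, the adaptors IRS1 and IRS2, the PI3K inhibitor PIK3IP1, and the transcription factors FOXO1, FOXO3 and FOXO4. The members were the rows of the deposited count table whose name is one of these 8 symbols, 8 of 44584 rows, and all 8 passed the filter on low counts in both cell lines. BT474 is a breast ductal carcinoma line that overexpresses HER2 and responds to the anti-HER2 antibody trastuzumab, and BT474R is clone 5, 1 clone selected from BT474 grown in trastuzumab. Both lines were starved overnight in medium low in serum and sampled then (T0), or after 1 h, 12 h or 24 h in fresh starvation medium with EGF, HRG or water as the vehicle. EGF is a ligand of EGFR, and HRG (heregulin) is a ligand of HER3 and HER4. EGFR, HER3 and HER4 can each form dimers with HER2. EGF was given at the higher mass concentration, so a difference between EGF and HRG is also one of dose. The 20 groups held 2 libraries each, 40 in all, and the labels do not say whether the 2 cultures of a group were grown independently, so p-values measure the spread between these samples, which may be technical.

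In the insulin pathway, INSR and IGF1R phosphorylate IRS1 and IRS2, which recruit PI3K, and PI3K activates AKT. AKT phosphorylates the FOXO factors, which then leave the nucleus, and FOXO factors in the nucleus can raise the transcription of INSR, IGF1R, IRS2 and PIK3IP1, so that low PI3K activity raises the upstream parts of the pathway. HER2 dimers with HER3 signal through the same PI3K and AKT. RNA levels show neither where a FOXO protein is in the cell nor whether it is phosphorylated. In bulk RNA, fewer cells of a type and less RNA per cell cannot be told apart.

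Per library, 19200632 to 29098915 reads were counted on genes in BT474 and 16794594 to 33387936 in BT474R. Levels are given below as CPM, a gene's count scaled to the total of its library after TMM normalization, which corrects that total for differences in composition. All 11 luminal epithelial markers, among them ERBB2, KRT8 and GATA3, were at 1 CPM or more in every library of both lines, with ERBB2, the gene of HER2, between 5994 and 10550 CPM. Of 10 markers of other cell types, 8 stayed under 1 CPM in every library, with LUM at 0 in every BT474R library, while VWF and COL1A1 did not. Their summed level was 90 to 120 CPM in BT474 and 181 to 307 CPM in BT474R, and its part in the results was not tested. The 2 libraries of HRG-BT474R at 24 h differed most of all replicate pairs, with an SD of the log2 difference of 0.255 across genes and a lowest value of 0.0941 among the 20 groups.

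RefSeq holds promoter windows for all 8 genes, 12 windows in all, each from 250 bases before to 50 bases after a start site on GRCh38.p14. They were searched on both strands for the FOXO consensus GTAAACA, for CAAAACA, the core of the insulin response element, for the E-box CACGTG and for the cyclic AMP response element TGACGTCA. GTAAACA was in 1 window of PIK3IP1 and in the window of FOXO4, against 3.42% of all 35116 windows. CAAAACA was in the window of IRS2, against 4.92% of all windows, and CACGTG in that of IRS1, against 7.26%. TGACGTCA was in no member's window, against 1.85% of all. A match is a description of the letters and not a binding site. The 3 windows with GTAAACA or CAAAACA are shown, each 5′ to 3′ on the strand of its gene with the match in capitals. They were chosen by the match and not by a response to ligand. The match started 40 bases before the start site in IRS2 (chr13:109786534-109786833, minus strand), and it lay after the start site in PIK3IP1 (chr22:31292439-31292738, minus strand) and FOXO4 (chrX:71095601-71095900, plus strand). In IRS2 and PIK3IP1 the gene strand carries the reverse complement, TGTTTTG and TGTTTAC.
IRS2: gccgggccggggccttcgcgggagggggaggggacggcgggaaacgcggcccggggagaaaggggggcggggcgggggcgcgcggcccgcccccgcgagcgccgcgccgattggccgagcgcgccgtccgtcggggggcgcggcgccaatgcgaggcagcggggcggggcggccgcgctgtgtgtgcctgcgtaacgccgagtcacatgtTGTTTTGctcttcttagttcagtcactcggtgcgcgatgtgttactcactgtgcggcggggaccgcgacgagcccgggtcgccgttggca
PIK3IP1: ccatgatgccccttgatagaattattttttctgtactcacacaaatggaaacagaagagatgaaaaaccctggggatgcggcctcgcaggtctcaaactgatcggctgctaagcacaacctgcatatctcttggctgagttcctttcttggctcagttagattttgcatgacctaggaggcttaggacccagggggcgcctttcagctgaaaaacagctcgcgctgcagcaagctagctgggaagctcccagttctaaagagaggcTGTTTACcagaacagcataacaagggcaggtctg
FOXO4: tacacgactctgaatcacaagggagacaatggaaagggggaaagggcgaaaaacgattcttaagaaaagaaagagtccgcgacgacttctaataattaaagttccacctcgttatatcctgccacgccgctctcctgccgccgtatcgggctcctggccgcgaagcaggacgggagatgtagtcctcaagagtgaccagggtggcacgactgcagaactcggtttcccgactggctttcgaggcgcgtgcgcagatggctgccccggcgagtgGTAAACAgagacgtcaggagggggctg

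At T0, FOXO3 had the highest level per length in both lines, and IRS2 the lowest mean. FOXO3 reached 40.9 ± 1.29 CPM per kb of exon in BT474 and 42.0 ± 1.66 CPM per kb in BT474R (SD, n = 2). In BT474 it was followed by IGF1R (6.93 CPM per kb), PIK3IP1 (6.40), IRS1 (5.04), INSR (2.66), FOXO4 (2.43), FOXO1 (0.461) and IRS2 (0.292). In BT474R the order on the same scale was FOXO4 (6.54 CPM per kb), PIK3IP1 (4.93), INSR (3.99), IGF1R (2.41), IRS1 (1.57), FOXO1 (1.13) and IRS2 (1.04). The libraries of INSR and FOXO4 in BT474 and those of FOXO1 and IRS2 in BT474R overlapped on this scale, so these neighbours could not be ordered. Lengths were exon unions of GENCODE 44, since the annotation used for counting was not given in the sources used here.

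The lines differed at T0 in 6 of the 8 genes, where 46.9% of the 24641 genes tested differed. IGF1R, the receptor for insulin-like growth factors, had 94.5 and 98.7 CPM in BT474 and 33.2 and 34.1 CPM in BT474R, and IRS1 had a mean of 50.5 CPM in BT474 against 15.7 and 15.8 CPM in BT474R. Both were lower in each BT474R library, with log2 fold changes of −1.52 ± 0.07 and −1.68 ± 0.09 (SE). IRS2 was higher in BT474R, with 2.51 and 2.25 CPM in BT474 and 8.82 and 8.19 CPM in BT474R, a log2 fold change of 1.82 ± 0.18. FOXO4 had 10.8 and 7.63 CPM in BT474 and 25.0 and 24.6 CPM in BT474R (1.41 ± 0.12), and FOXO1 had 3.29 and 2.20 CPM against 6.36 and 7.11 CPM (1.28 ± 0.18). INSR, the insulin receptor, had 29.5 and 28.2 CPM in BT474 and 43.2 and 43.3 CPM in BT474R (0.58 ± 0.08). Adjusted p-values for these 6 genes lay between 7.52e-20 and 1.79e-07 (edgeR's quasi-likelihood test, Benjamini-Hochberg), and no library of a line overlapped the other line. FOXO3 had 321 and 307 CPM against 331 and 313 CPM, which overlap, and a log2 fold change of 0.03 (95% interval −0.22 to 0.29). PIK3IP1 had 23.9 and 24.8 CPM against 18.7 and 18.8 CPM, a log2 fold change of −0.38 with an adjusted p of 0.0637, and it passed the threshold in 5 of 7 alternative fits.

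**Figure D1:**
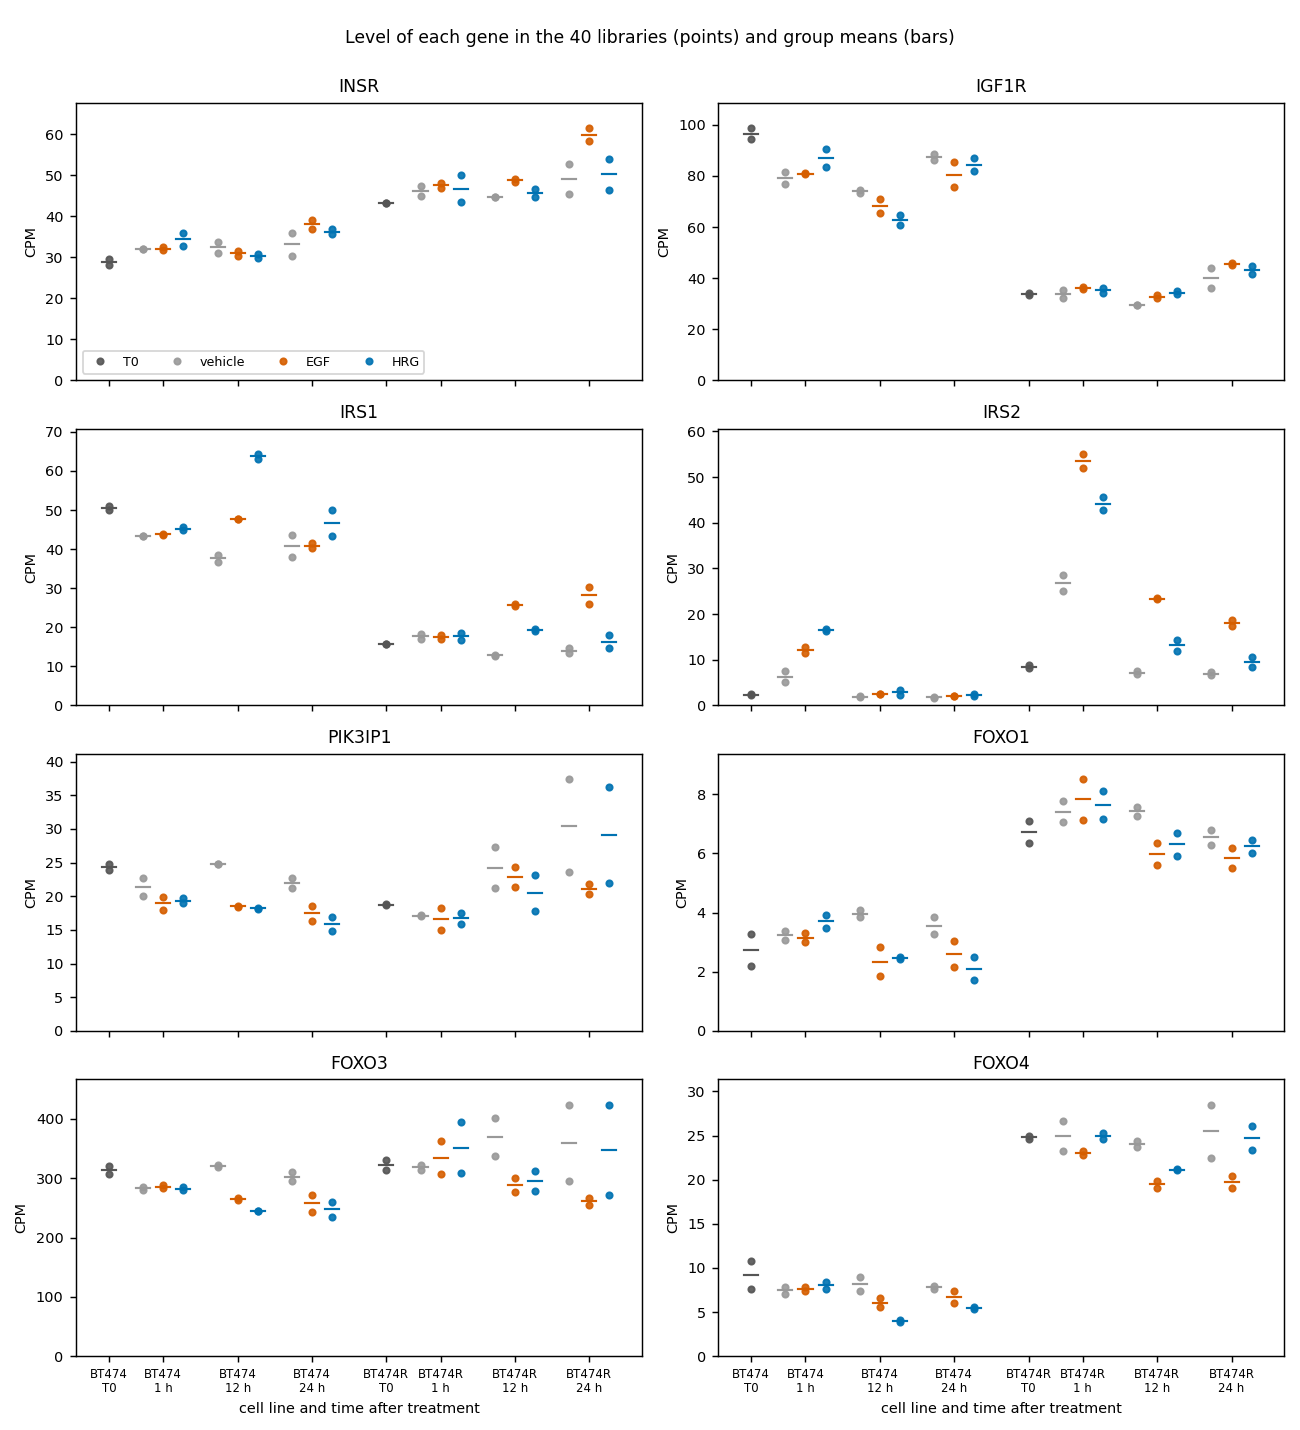
Level of each of the 8 genes in CPM (linear axis from 0) by line and time, with 1 point per library, a bar at the mean of the 2 libraries, and colours for T0, vehicle, EGF and HRG. IRS2 peaked at 1 h in both lines, at 55.1 CPM in EGF-BT474R, and FOXO3 and PIK3IP1 showed wide gaps between the 2 libraries of vehicle and of HRG in BT474R at 24 h.

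The vehicle was itself a change of medium, and IRS2 was higher 1 h after it than at T0. IRS2 rose from 2.51 and 2.25 CPM at T0 to 7.46 and 5.13 CPM after 1 h of vehicle in BT474 (log2 fold change 1.40 ± 0.19, adjusted p = 1.15e-06), and from 8.82 and 8.19 CPM to 25.1 and 28.6 CPM in BT474R (1.67 ± 0.11, adjusted p = 3.35e-09, edgeR's quasi-likelihood test). All vehicle libraries at 1 h were above all T0 libraries of their line, and by 12 h and 24 h IRS2 in vehicle was at 1.65 to 2.00 CPM in BT474 and 6.73 to 7.53 CPM in BT474R, below T0 with no call. In BT474, 3 of the 8 genes were called in vehicle against T0 at 1 h, 2 at 12 h and 1 at 24 h, where 6.61%, 6.41% and 11.4% of all 25146 genes tested were. IGF1R fell by 0.28 at 1 h and by 0.39 at 12 h on the log2 scale, and IRS1 by 0.21, 0.42 and 0.31 at 1, 12 and 24 h. The IRS1 call at 1 h was lost with DESeq2 (log2 fold change −0.20) and without any 1 of its 4 libraries (−0.24 to −0.18), that at 24 h without vehicle replicate 2 (−0.20), and that of IGF1R at 1 h without T0 replicate 2 (−0.23). With a replicate block within each time point, the IRS1 calls at 1 h (−0.18) and 24 h (−0.21) were lost as well. The other members had no call against T0 in BT474, with log2 fold changes over the 3 times of 0.16 to 0.21 for INSR, −0.17 to 0.02 for PIK3IP1, 0.22 to 0.50 for FOXO1, −0.14 to 0.03 for FOXO3 and −0.30 to −0.19 for FOXO4. In BT474R, 1 gene was called at 1 h, 0 at 12 h and 2 at 24 h, where 2.24%, 1.13% and 13.7% of the 24287 genes tested were. At 12 h, IGF1R and IRS1 had unadjusted p-values under 0.05 and DESeq2 called 0 of the 8. At 24 h, IGF1R was at 36.2 and 43.9 CPM in vehicle and 33.2 and 34.1 CPM at T0 (log2 fold change 0.26), and PIK3IP1 at 23.6 and 37.4 CPM in vehicle and 18.7 and 18.8 CPM at T0 (0.71). Both calls rested on vehicle replicate 2, without which the log2 fold changes were 0.10 and 0.33, and both were also lost without either T0 library (IGF1R 0.24 and 0.29, PIK3IP1 0.70 and 0.72) and with the replicate block within each time point (0.22 and 0.43). The members with no call against T0 in BT474R had log2 fold changes of 0.06 to 0.19 for INSR, −0.29 to 0.17 for IRS1, −0.03 to 0.14 for FOXO1, −0.01 to 0.21 for FOXO3 and −0.03 to 0.06 for FOXO4.

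The main comparisons were of each ligand with the vehicle of the same line and time, and EGF and HRG shared these vehicle libraries. In EGF-BT474, 1 of the 8 genes was called at 1 h, 5 at 12 h and 2 at 24 h, against 2.19%, 16.0% and 16.4% of all genes tested. In HRG-BT474 the counts were 1, 7 and 5 of 8, against 2.77%, 25.8% and 24.1%. In EGF-BT474R they were 1, 3 and 4 of 8, against 0.457%, 12.0% and 17.3%. In HRG-BT474R they were 1, 2 and 0 of 8, against 0.169%, 4.12% and 2.78%. These shares are over all genes tested, 25146 in BT474 and 24287 in BT474R, down to very low counts. All 8 members averaged at least 1 CPM in each line, and for each member 14189 other genes did too. Shares among genes of like level were not computed, here or for the lists below. At 24 h in HRG-BT474R, edgeR called 0 of the 8, IRS1 and IRS2 had unadjusted p-values under 0.05, and DESeq2 called IRS2. Over the 6 comparisons of a line, 21 of 48 tests were called in BT474, 6 up and 15 down, and 11 of 48 in BT474R, 9 up and 2 down. Every call upward was of an adaptor, except INSR in EGF-BT474R at 24 h. Every call downward was of PIK3IP1 or a FOXO factor, except IGF1R in HRG-BT474 at 12 h.

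**Figure D2:**
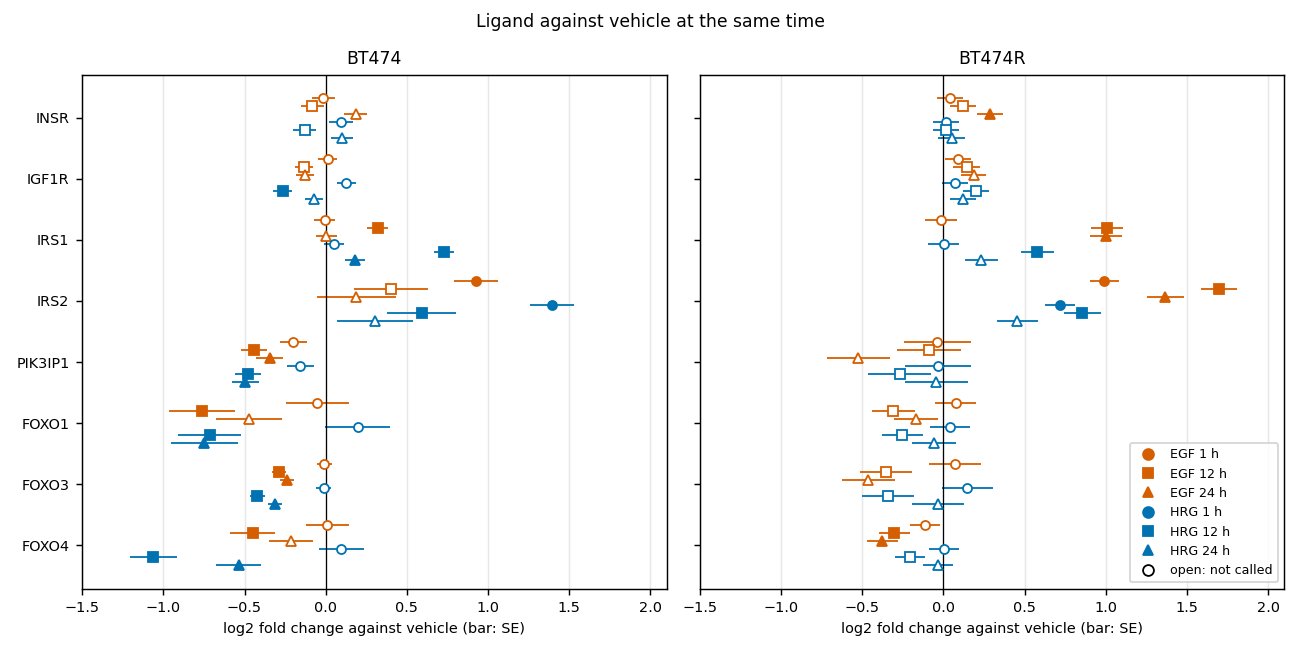
Log2 fold change of each gene against the vehicle of the same time in BT474 (left) and BT474R (right), for EGF (orange) and HRG (blue) at 1 h (circles), 12 h (squares) and 24 h (triangles), with bars for the SE and filled points for calls. The adaptors IRS1 and IRS2 lie to the right of 0 and PIK3IP1 and the FOXO factors to the left in BT474 at 12 h. In BT474R, PIK3IP1, FOXO1 and FOXO3 have open points throughout, and at 12 h they also lie to the left of 0.

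Of the receptors, INSR was called in 1 of 12 ligand comparisons and IGF1R in 1. INSR had 58.3 and 61.5 CPM in EGF-BT474R at 24 h and 45.4 and 52.9 CPM in vehicle. Both EGF libraries were above both vehicle libraries (log2 fold change 0.29 ± 0.08, adjusted p = 0.0150, edgeR), and the call was lost without vehicle replicate 1 (0.18) or EGF replicate 2 (0.26). In BT474, INSR at 24 h had 39.2 and 36.8 CPM with EGF, 35.7 and 36.8 CPM with HRG and 30.4 and 35.9 CPM with vehicle, with no call for EGF (0.18, adjusted p = 0.0654) or HRG (0.10, adjusted p = 0.349). Without vehicle replicate 2, both passed (0.31 and 0.23). IGF1R had 60.9 and 64.7 CPM in HRG-BT474 at 12 h and 74.5 and 73.5 CPM in vehicle, so that both HRG libraries were lower (−0.27 ± 0.06, adjusted p = 0.000411), and it stayed called with any library left out. EGF-BT474 at 12 h had 65.5 and 71.0 CPM of IGF1R, with no call (−0.13, adjusted p = 0.123). In BT474R, IGF1R had log2 fold changes of 0.07 to 0.20 in the 6 comparisons, with no call. Without vehicle replicate 2, that for EGF-BT474R at 24 h passed (0.34).

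IRS1, the adaptor that INSR and IGF1R phosphorylate, was not called at 1 h. At 12 h it was above the vehicle of that time with either ligand in either line. In BT474 at 12 h it had 38.6 and 36.8 CPM with vehicle, 47.7 and 47.6 CPM with EGF and 64.4 and 63.1 CPM with HRG. The 3 groups did not overlap. Against vehicle, IRS1 was higher by a log2 of 0.32 ± 0.06 with EGF (adjusted p = 0.000291) and 0.73 ± 0.06 with HRG (adjusted p = 4.03e-12, edgeR's quasi-likelihood test). IRS1 had 50 and 51 CPM at T0 in BT474 and was lower in vehicle at 12 h. Against T0, its EGF libraries at 12 h were thus lower and its HRG libraries higher. At 24 h it had 43.5 and 38.1 CPM with vehicle, 41.5 and 40.3 CPM with EGF and 49.9 and 43.3 CPM with HRG. The groups overlapped, and the call for HRG (0.18 ± 0.06, adjusted p = 0.0333) was lost without vehicle replicate 2 (0.09), without HRG replicate 1 (0.06) with both lines in 1 fit (0.20) and with only the libraries compared. In BT474R at 12 h, IRS1 had 12.6 and 13 CPM with vehicle, 26.0 and 25.5 CPM with EGF and 19.1 and 19.6 CPM with HRG. EGF gave the higher level here (1.01 ± 0.10, adjusted p = 1.89e-07) and HRG the lower (0.58 ± 0.10, adjusted p = 0.000909), without overlap. At 24 h it was still at 26.0 and 30.4 CPM with EGF against 14.6 and 13.5 CPM with vehicle (1.00 ± 0.10, adjusted p = 1.30e-07). With HRG at 24 h it had 14.6 and 18.1 CPM and no call (0.23, adjusted p = 0.293), and it passed without HRG replicate 1 (0.35). At 1 h the log2 fold changes of IRS1 were between −0.02 and 0.05 in the 4 comparisons, with levels of 43.3 to 45.6 CPM in BT474 and 16.7 to 18.6 CPM in BT474R.

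IRS2, the other main adaptor, rose at 1 h with either ligand in either line, on top of its rise in vehicle. In BT474 at 1 h it had 7.46 and 5.13 CPM with vehicle, 11.4 and 12.8 CPM with EGF and 16.7 and 16.4 CPM with HRG. The 3 groups did not overlap (EGF 0.93 ± 0.14, adjusted p = 9.70e-06, and HRG 1.39 ± 0.14, adjusted p = 6.63e-10). The EGF call was lost in a fit of only the 4 libraries compared (0.92, adjusted p = 0.106). In BT474R at 1 h it had 25.1 and 28.6 CPM with vehicle, 55.1 and 51.9 CPM with EGF and 42.7 and 45.6 CPM with HRG. Here EGF was highest (0.99 ± 0.09, adjusted p = 3.93e-07) and HRG between (0.72 ± 0.09, adjusted p = 0.000162).

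At the later times IRS2 stayed above vehicle in EGF-BT474R and was near its T0 level in BT474. In BT474R it had 6.78 and 7.53 CPM with vehicle, 23.2 and 23.5 CPM with EGF and 11.9 and 14.4 CPM with HRG at 12 h, again without overlap. Log2 fold changes at 12 h were 1.70 ± 0.11 for EGF (adjusted p = 5.33e-10) and 0.86 ± 0.12 for HRG (adjusted p = 5.85e-05). At 24 h, EGF-BT474R had 17.5 and 18.6 CPM of IRS2 against 7.23 and 6.73 CPM with vehicle (1.37 ± 0.11, adjusted p = 1.54e-08). HRG-BT474R at 24 h had 8.42 and 10.6 CPM, both above vehicle, with 0.45 ± 0.13 and an adjusted p of 0.0549, and it passed with DESeq2, without a filter, with either replicate block and without HRG replicate 1 (0.58). In BT474 at 12 h, IRS2 had 2.00 and 1.80 CPM with vehicle, 2.6 and 2.5 CPM with EGF and 2.29 and 3.47 CPM with HRG. HRG passed (0.59 ± 0.21, adjusted p = 0.0359) and EGF did not (0.40, adjusted p = 0.270). The HRG call was lost with DESeq2 (0.60), without HRG replicate 2 (0.23) and without vehicle replicate 1 (0.67) or 2 (0.53). At 24 h no BT474 library was above 2.54 CPM and neither ligand was called (EGF 0.19 and HRG 0.31). Counts of IRS2 were low in BT474, 35 to 370 reads per library, and higher in BT474R, 143 to 1417 reads.

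**Figure D3:**
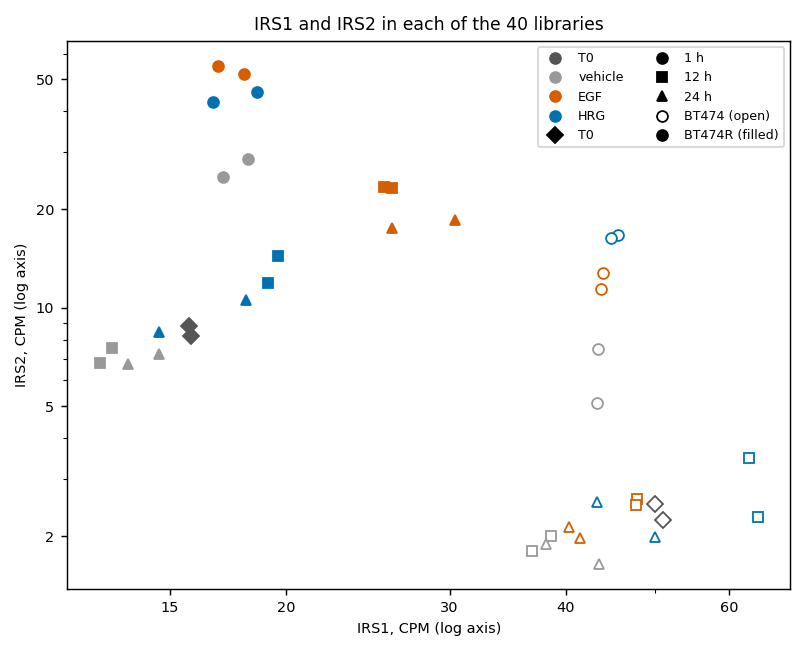
IRS1 (horizontal) against IRS2 (vertical) in CPM on log axes, with 1 point for each of the 40 libraries, open for BT474 and filled for BT474R, colours for T0, vehicle, EGF and HRG, and shapes for time. BT474 lies at higher IRS1, from 36.8 CPM upward, and no BT474R library is above 30.4 CPM of IRS1, while along IRS2 the EGF and HRG libraries of BT474 at 1 h (11.4 to 16.7 CPM) lie within the range of BT474R. The 1 h libraries lie higher along IRS2, and the 12 h and 24 h EGF libraries of BT474R lie to the right of and above their vehicle.

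PIK3IP1, a membrane protein that binds and inhibits the catalytic subunit of PI3K, fell in BT474 at 12 h and 24 h. At 12 h it had 24.8 and 24.8 CPM with vehicle, 18.4 and 18.6 CPM with EGF and 18.3 and 18.1 CPM with HRG. Both ligand groups were below vehicle and close to each other (EGF −0.44 ± 0.08, adjusted p = 0.000101, and HRG −0.48 ± 0.08, adjusted p = 9.43e-06). At 24 h it had 21.3 and 22.7 CPM with vehicle, 16.4 and 18.6 CPM with EGF (−0.35 ± 0.08, adjusted p = 0.00235) and 14.9 and 16.9 CPM with HRG (−0.50 ± 0.08, adjusted p = 1.24e-05). The EGF call at 24 h was lost without vehicle replicate 2 (−0.30) or EGF replicate 1 (−0.24), and in 1 fit of both lines the EGF calls were lost at 12 h (−0.43) and at 24 h (−0.34). In BT474R, no ligand comparison was called, and at 24 h the libraries were far apart with vehicle (23.6 and 37.4 CPM) and HRG (22.0 and 36.3 CPM) and close with EGF (20.4 and 21.8 CPM). EGF-BT474R at 24 h lay below both vehicle libraries (−0.52 ± 0.20, adjusted p = 0.0712). It passed without a filter, with either replicate block, in 1 fit of both lines, in a fit of only the libraries compared, and without vehicle replicate 1 (−0.83). PIK3IP1-DT, a divergent transcript next to PIK3IP1 whose reads could be counted with it if strand was not used, stayed under 0.8 CPM in all 40 libraries.

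FOXO1, the FOXO factor best known for insulin signaling in liver, was at low counts, 39 to 112 reads per library in BT474 and 106 to 251 in BT474R. In BT474 at 12 h it had 3.86 and 4.07 CPM with vehicle, 2.82 and 1.87 CPM with EGF and 2.50 and 2.43 CPM with HRG. Both ligand groups were below vehicle (EGF −0.76 ± 0.20, adjusted p = 0.00657, and HRG −0.71 ± 0.19, adjusted p = 0.00458, edgeR). The T0 libraries had 3.29 and 2.20 CPM, which both ligand groups at 12 h overlapped. Vehicle at 12 h was above T0 with no call, so the gap is one from vehicle and not from the starting level. At 24 h FOXO1 had 3.86 and 3.26 CPM with vehicle, 2.16 and 3.03 CPM with EGF and 2.49 and 1.72 CPM with HRG. HRG passed (−0.75 ± 0.21, adjusted p = 0.00571) and EGF did not (−0.47, adjusted p = 0.119), though EGF passed without EGF replicate 2 (−0.73). The EGF call at 12 h was lost without vehicle replicate 2 (−0.72) or EGF replicate 2 (−0.50), and the HRG call at 12 h without HRG replicate 2 (−0.69). The HRG call at 24 h was lost without vehicle replicate 1 (−0.63) or HRG replicate 2 (−0.52). In BT474R at 12 h, FOXO1 had 7.27 and 7.57 CPM with vehicle, 6.36 and 5.61 CPM with EGF and 6.70 and 5.91 CPM with HRG. Both ligand groups were below vehicle there with no call (−0.31, adjusted p = 0.146, and −0.25, adjusted p = 0.343).

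FOXO3, the FOXO factor with the highest level here, fell in BT474 at 12 h and 24 h with either ligand. At 12 h it had 323 and 319 CPM with vehicle, 267 and 264 CPM with EGF and 245 and 244 CPM with HRG. The 2 libraries of each group were close and the 3 groups did not overlap (EGF −0.29 ± 0.04, adjusted p = 4.87e-06, and HRG −0.42 ± 0.04, adjusted p = 8.61e-10). At 24 h the libraries were further apart, with 295 and 310 CPM with vehicle, 243 and 272 CPM with EGF (−0.24 ± 0.04, adjusted p = 9.29e-05) and 235 and 260 CPM with HRG (−0.31 ± 0.04, adjusted p = 6.40e-07). These 4 calls held with any library left out. In 1 fit of both lines, EGF was lost at 12 h (−0.27) and 24 h (−0.23) and HRG at 24 h (−0.29).

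In BT474R, FOXO3 was not called in any of the 6 ligand comparisons. At 12 h it had 338 and 401 CPM with vehicle, 301 and 277 CPM with EGF and 278 and 312 CPM with HRG. Both ligand groups were below vehicle, with log2 fold changes of −0.36 (adjusted p = 0.175) and −0.34 (adjusted p = 0.293) that are near in size to those in BT474 but with an SE of 0.16. At 24 h it had 295 and 423 CPM with vehicle, 271 and 424 CPM with HRG and 255 and 267 CPM with EGF. Replicate 2 of vehicle and of HRG was the higher one, as for PIK3IP1. EGF-BT474R at 24 h had −0.46 ± 0.16 and an adjusted p of 0.0515, and it passed in 5 of 9 alternatives and without vehicle replicate 1 (−0.70). FOXO3B, a near-identical copy of FOXO3 that can share its reads, had 17.6 to 23.5 CPM in BT474 and 20.9 to 30.4 CPM in BT474R, so the level of FOXO3 is uncertain by reads that either row may hold.

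FOXO4, a FOXO factor encoded on the X chromosome, had the widest log2 fold change of the 3 FOXO factors in HRG-BT474 at 12 h. At 12 h it had 8.97 and 7.35 CPM with vehicle, 5.55 and 6.62 CPM with EGF and 4.14 and 3.89 CPM with HRG. The 3 groups did not overlap (EGF −0.45 ± 0.14, adjusted p = 0.0210, and HRG −1.06 ± 0.15, adjusted p = 2.84e-07). The EGF call was lost with DESeq2 (−0.43) and without vehicle replicate 1 (−0.30) or EGF replicate 1 (−0.31), while the HRG call held in every alternative and with any library left out. At 24 h FOXO4 had 7.67 and 7.93 CPM with vehicle, 5.59 and 5.33 CPM with HRG (−0.54 ± 0.14, adjusted p = 0.00336) and 7.42 and 6.02 CPM with EGF (−0.22, adjusted p = 0.342). In BT474R, where FOXO4 was higher at T0, it had 23.7 and 24.4 CPM with vehicle and 19.9 and 19.1 CPM with EGF at 12 h, and 28.5 and 22.5 CPM and 20.4 and 19.1 CPM at 24 h. The EGF libraries were below vehicle at both times (−0.30 ± 0.10, adjusted p = 0.0413, and −0.38 ± 0.10, adjusted p = 0.00758). The call at 12 h was lost with DESeq2 (−0.29) or its size factors (−0.29) and without any 1 of its 4 libraries (−0.34 to −0.25), and that at 24 h without vehicle replicate 1 (−0.19) or EGF replicate 2 (−0.32). HRG-BT474R had 21.2 and 21.1 CPM of FOXO4 at 12 h and 26.1 and 23.4 CPM at 24 h, with no call (−0.21, adjusted p = 0.272, and −0.03, adjusted p = 0.926). At 1 h only IRS2 was called in the 4 ligand comparisons. The other log2 fold changes at 1 h were −0.01 to 0.09 for INSR, −0.20 to −0.04 for PIK3IP1, −0.05 to 0.20 for FOXO1, −0.01 to 0.15 for FOXO3 and −0.11 to 0.10 for FOXO4.

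A direct test of HRG against EGF was called for 0, 2 and 0 of the 8 genes in BT474 at 1, 12 and 24 h, against 0.139%, 2.17% and 0.768% of all genes tested. At 12 h, IRS1 was higher with HRG (log2 fold change 0.41 ± 0.06, adjusted p = 4.48e-05) and FOXO4 lower (−0.61 ± 0.16, adjusted p = 0.0285). The FOXO4 call was lost without any 1 of its 4 libraries (−0.74 to −0.48) and in 1 fit of both lines (−0.60). For the counts of 0 from edgeR, IGF1R and IRS2 at 1 h and IRS1 and FOXO4 at 24 h had unadjusted p-values under 0.05, and DESeq2 called 0. In BT474R the counts were 0, 2 and 3 of 8, against 0.0494%, 1.42% and 5.18%. At 1 h, 1 gene (IRS2) had an unadjusted p under 0.05 and DESeq2 called 0. IRS2 was lower with HRG than with EGF at 12 h (−0.84 ± 0.10, adjusted p = 3.14e-05) and 24 h (−0.91 ± 0.11, adjusted p = 1.03e-05), and so was IRS1 (−0.43 ± 0.09, adjusted p = 0.0170, and −0.77 ± 0.10, adjusted p = 1.39e-05). FOXO4 was higher with HRG at 24 h (0.34 ± 0.10, adjusted p = 0.0386). The 12 h call of IRS1 was lost without any 1 of its 4 libraries (−0.45 to −0.41), and the FOXO4 call with DESeq2 (0.33), in 1 fit of both lines (0.33), without HRG replicate 1 (0.24) and without EGF replicate 1 (0.40) or 2 (0.28). In a fit of only the 4 libraries compared, no 24 h call remained, with log2 fold changes of −0.78 for IRS1, −0.92 for IRS2 and 0.33 for FOXO4. IRS1 at 12 h was thus higher with HRG than with EGF in BT474 and lower in BT474R. INSR, IGF1R, PIK3IP1, FOXO1 and FOXO3 had no call between the ligands, with log2 fold changes of −0.28 to 0.25 in BT474 and −0.24 to 0.48 in BT474R.

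Changes of a ligand effect between times were tested as differences of log2 fold changes. In BT474, the EGF effect differed between 12 h and 1 h in 2 of the 8 genes, against 7.72% of all genes tested, and the HRG effect in 6, against 14.2%. Between 24 h and 12 h the EGF effect differed in 0, against 0.517%, and the HRG effect in 1, against 2.50%. That gene was IRS1, whose HRG effect fell by 0.55 ± 0.09 (adjusted p = 8.32e-05). From 1 h to 12 h the HRG effect on FOXO4 fell by 1.16 ± 0.20 (adjusted p = 4.33e-05) and that on FOXO3 by 0.41 ± 0.06 (adjusted p = 6.01e-06, and lost in 1 fit of both lines, where it fell by 0.39). In BT474R, the EGF effect differed between 12 h and 1 h in 2 genes, against 4.43%, and the HRG effect in 1, against 0.992%. The EGF effect on IRS1 rose by 1.02 ± 0.14 (adjusted p = 6.80e-05) and that on IRS2 by 0.71 ± 0.14 (adjusted p = 0.00419). Between 24 h and 12 h neither effect differed in any of the 8 in BT474R, against 0.185% for EGF and 0.0288% for HRG. For these counts of 0 from edgeR, DESeq2 called 0 in each, and unadjusted p-values were under 0.05 for INSR and IRS1 with EGF in BT474, for IRS1 and IRS2 with HRG in BT474R and for 0 genes with EGF in BT474R.

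Ligand effects were also tested between the lines, over all 40 libraries. The EGF effect differed in 0, 2 and 2 of the 8 genes at 1, 12 and 24 h, against 0.138%, 1.96% and 4.01% of all 24641 genes. The genes were IRS1 and IRS2 at both times, and both had the larger EGF effect in BT474R. For IRS1 the difference was 0.67 ± 0.12 at 12 h (adjusted p = 0.000354) and 1.00 ± 0.12 at 24 h (adjusted p = 1.51e-07), and for IRS2 it was 1.28 ± 0.26 (adjusted p = 0.00262) and 1.17 ± 0.28 (adjusted p = 0.00717). The IRS2 call at 12 h was lost without BT474 vehicle replicate 1 (1.19), and at 24 h without BT474 vehicle replicate 2 (1.06) or BT474 EGF replicate 1 (1.11). The HRG effect differed in 1, 2 and 0 genes, against 0.544%, 4.07% and 3.33%. On the log2 scale, HRG raised IRS2 at 1 h less in BT474R than in BT474 (difference −0.69 ± 0.17, adjusted p = 0.0407). From vehicle to HRG, mean IRS2 went from 6.29 to 16.5 CPM in BT474 and from 26.9 to 44.2 CPM in BT474R. This call was lost with the replicate block within each time point (−0.69) and without BT474 vehicle replicate 2 (−0.44) or any of the other 5 libraries than vehicle replicate 1 of either line (−0.74 to −0.59). At 12 h the HRG effect was higher in BT474R for IGF1R (0.45 ± 0.10, adjusted p = 0.00467) and for FOXO4 (0.84 ± 0.18, adjusted p = 0.00428), the latter lost without BT474 vehicle replicate 1 (0.69) or BT474 HRG replicate 2 (0.79). For FOXO3, FOXO1 and PIK3IP1, which were called in BT474 and not in BT474R, the effects were not shown to differ between the lines. For the counts of 0 from edgeR, DESeq2 called 0 as well, with 0 unadjusted p-values under 0.05 for EGF at 1 h and 2, of FOXO1 and FOXO4, for HRG at 24 h.

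Genes that FOXO factors are known to activate were taken as a list of 21, all of them tested in both lines. With EGF in BT474 the list had 4 upward and 2 downward calls at 1 h, then 2 and 12 at 12 h, and 3 and 7 at 24 h. With HRG these counts were 4 and 4, 3 and 13, and 3 and 12. Of all genes tested, 2.19%, 16.0% and 16.4% were called with EGF and 2.77%, 25.8% and 24.1% with HRG. At 12 h the median log2 fold change of the list was −0.21 with EGF and −0.37 with HRG, beside −0.03 and −0.02 over all genes. GABARAPL1 (autophagy) fell by a log2 of 0.71 and 1.05 with EGF and HRG, SESN3 (sestrin 3, an inhibitor of mTORC1) by 0.69 and 0.95, and FBXO32 (the ubiquitin ligase atrogin-1) by 0.63 with EGF at 12 h. DEPP1, another FOXO target, fell with HRG at 1 h (−1.36) and 12 h (−1.22). Its level was low, with means of 2.86 CPM in vehicle and 1.11 CPM in HRG at 1 h, and 1.76 and 0.787 CPM at 12 h. At 24 h, RBL2, a pocket protein that holds cells in quiescence, had log2 fold changes of −0.51 (EGF) and −0.65 (HRG). Some members moved the other way. PDK4, which inhibits pyruvate dehydrogenase, rose in all 6 BT474 comparisons, by 1.03 to 1.54, and CDKN1B, the cell cycle inhibitor p27, rose by 0.14 with EGF and 0.22 with HRG at 12 h. BCL6, a transcriptional repressor, rose by 0.54 (EGF) and 0.70 (HRG) at 1 h. CCNG2, with a mean of 506 CPM in vehicle, rose by 0.32 and 0.40 at 1 h, while TXNIP, at 297 CPM, fell by 0.25 and 0.36.

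In EGF-BT474R the 21 FOXO-activated genes had 0 upward calls and 1 downward call at 1 h, then 1 and 5 at 12 h, and 3 and 7 at 24 h. In HRG-BT474R these counts were 0 and 0, 1 and 4, and 0 and 1. Of all genes tested, 0.457%, 12.0% and 17.3% were called with EGF and 0.169%, 4.12% and 2.78% with HRG. At 1 h with HRG, where edgeR called none, GADD45A, PDK4 and FBXO32 had unadjusted p-values under 0.05. DESeq2 called 23 tests of the list over the 6 comparisons of BT474R, the same number as edgeR. The medians at 12 h were −0.15 with EGF and −0.13 with HRG, beside −0.01 and −0.02 over all genes. FBXO32 fell by 0.50 with EGF and 0.45 with HRG at 12 h, and SESN3 by 0.73 with HRG at 12 h and by 0.88 with EGF at 24 h. GADD45A, a gene of the DNA damage response, fell with EGF at 1 h (−0.49), 12 h (−0.62) and 24 h (−0.58), and CAT, catalase, with EGF at 12 h (−0.32). PDK4 rose by 1.24 with EGF and 0.98 with HRG at 12 h. With EGF at 24 h, PDK4 rose by 1.53, BCL6 by 0.47 and TNFSF10, the death ligand TRAIL, by 0.42. In HRG-BT474 at 1 h, TNFSF10 fell (−0.39). Over the 6 comparisons of a line, 69 tests of the list were called in BT474 and 23 in BT474R, and the shares of all genes called with HRG at 12 h and 24 h were also higher in BT474 than in BT474R. Without HRG replicate 2 at 24 h the count in BT474R was 35.

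**Figure D4:**
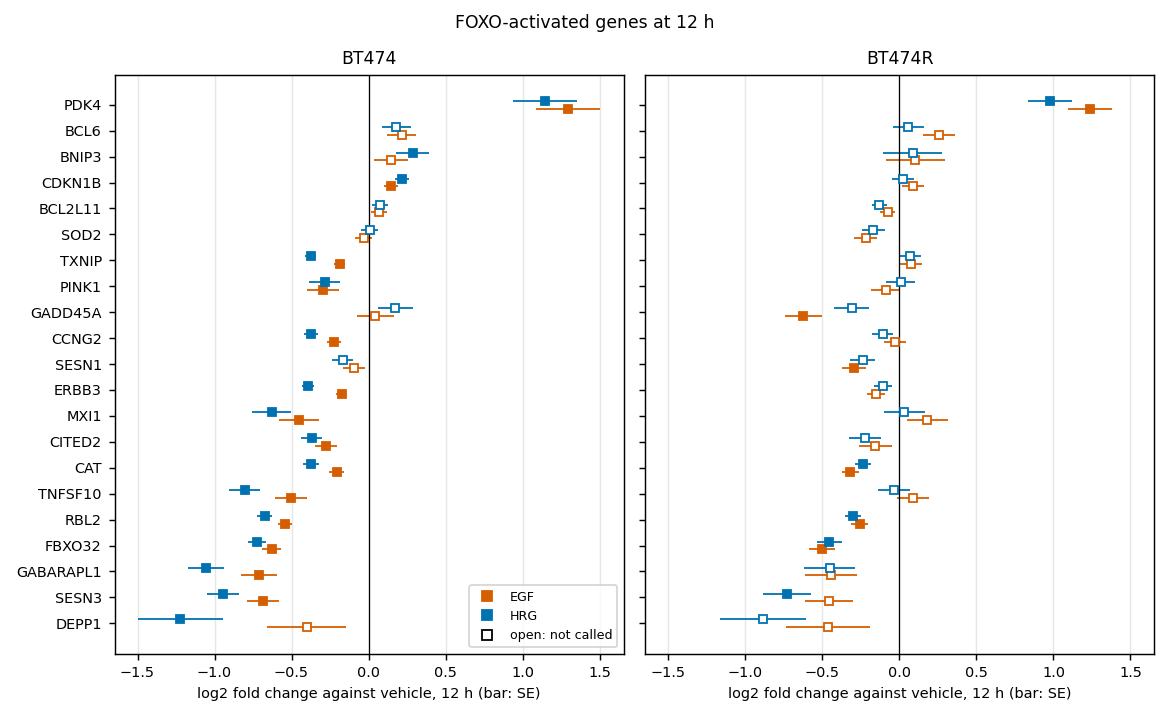
Log2 fold change against vehicle at 12 h of the 21 FOXO-activated genes in BT474 (left) and BT474R (right), for EGF (orange) and HRG (blue), with bars for the SE and filled squares for calls, ordered by the mean of the 4 values. In BT474, 12 genes with EGF and 13 with HRG are called below 0, and PDK4 is called above 0 in all 4 comparisons.

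The other insulin and IGF pathway genes formed a list of 18, of which 16 were tested. At 1 h edgeR called 0 of them with either ligand in either line, and unadjusted p-values were under 0.05 for 3, GAB1, GAB2 and PTPN1, with each ligand in BT474 and for 1 with each in BT474R (IGFBP3 with EGF, IGFBP2 with HRG). Over all 6 comparisons DESeq2 called 31 tests in BT474 and 17 in BT474R, where edgeR called 32 and 17. At 12 h, 3 rose and 3 fell in EGF-BT474, 5 and 5 in HRG-BT474, 3 and 3 in EGF-BT474R, and 2 and 3 in HRG-BT474R, and at 24 h the counts were 2 and 5, 3 and 6, 3 and 2, and 0 and 1. The shares of all genes called in these 4 comparisons were 16.0%, 25.8%, 12.0% and 4.12% at 12 h and 16.4%, 24.1%, 17.3% and 2.78% at 24 h. IGFBP3, a binding protein of insulin-like growth factors at low level here, fell by 1.69 (EGF) and 1.76 (HRG) at 12 h in BT474 and by 1.54 and 1.30 in BT474R. IGFBP5, another of these binding proteins, went from 8290 CPM with vehicle to 4210 CPM with EGF and 3340 CPM with HRG at 24 h (−0.99 and −1.33). In BT474R at 24 h it fell by 1.07 with EGF and 0.66 with HRG. GRB10, an adaptor that inhibits INSR, fell at 12 h by 0.26 and 0.29 in BT474 and by 0.63 and 0.43 in BT474R, with EGF and HRG. IGFBP4 rose at 12 h by 0.41 and 0.34 in BT474 and by 0.36 and 0.32 in BT474R. IGF2, a ligand of IGF1R and INSR, rose by 0.52 (EGF) and 0.61 (HRG) at 12 h in BT474R.

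The core genes of PI3K, AKT and mTOR formed a list of 23, all tested. At 12 h, 2 rose and 3 fell in EGF-BT474, 4 and 6 in HRG-BT474, 0 and 3 in EGF-BT474R, and 0 and 1 in HRG-BT474R, and at 24 h the counts were 3 and 2, 1 and 5, 1 and 6, and 0 and 1. Beside the shares of all genes called, 16.0%, 25.8%, 12.0% and 4.12% at 12 h and 16.4%, 24.1%, 17.3% and 2.78% at 24 h, several of these counts are near the background. At 1 h edgeR called 1 gene, PIK3CA, in HRG-BT474 and 0 elsewhere, where unadjusted p-values were under 0.05 for 4 genes in EGF-BT474, 2 in EGF-BT474R and 1 in HRG-BT474R. Over all 6 comparisons DESeq2 called 25 tests in BT474 and 11 in BT474R, where edgeR called 27 and 12. Of the regulatory subunits of PI3K, PIK3R3 fell by 0.21 with EGF and 0.37 with HRG in BT474 at 12 h. PIK3R2 fell at 24 h by 0.25 and 0.45 in BT474 and by 0.29 and 0.19 in BT474R, with EGF and HRG. PIK3R1 fell in EGF-BT474R by 0.38 at 12 h and 0.46 at 24 h, and in HRG-BT474R by 0.31 at 12 h. TSC1, an inhibitor of mTORC1, fell in BT474 at 12 h by 0.16 and 0.28. AKT1 rose by 0.19 (EGF) and 0.20 (HRG) at 12 h in BT474. So did INPP4B, by 0.14 and 0.15, and PHLPP2 with HRG (0.20), while RICTOR fell with EGF (−0.16). The calls of this list thus do not point to 1 direction of the pathway.

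As a description, each gene was compared with 14189 others over the 20 group means of log2 CPM, each centred on its line. IRS2 was most like FOSL1 (r = 0.969), RHOB (0.959) and PLK3 (0.959), and IRS1 most like RASSF8 (0.923), FMNL2 (0.887) and TNFRSF21 (0.883). FOXO3 was most like CAT (0.935), FOXO3B (0.935) and GPER1 (0.926), and FOXO4 most like IQCH-AS1 (0.946). The first for the others were KDSR for INSR (0.905), LRP1 for IGF1R (0.877), ZNF34 for PIK3IP1 (0.901) and ZNF136 for FOXO1 (0.894). Among the members, FOXO3 followed FOXO4 (0.780) and FOXO1 (0.678), and IRS1 ran opposite to FOXO3 (−0.769) and FOXO4 (−0.610), while IRS1 and IRS2 had r = 0.267. All of these values come from the same 40 libraries, so the points share depth and handling.

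Within a line, the 10 groups of a gene often could not be ordered beyond their replicate spread. Of the 9 pairs of neighbours in the order of group means, IRS2 in BT474R had 7 that did not overlap, falling from EGF, HRG and vehicle at 1 h through EGF at 12 h and 24 h to HRG at 12 h, below which HRG at 24 h overlapped T0. IRS2 in BT474 had 3, which set HRG, EGF and vehicle at 1 h above all other groups. IRS1 in BT474 had 5, with HRG at 12 h highest and T0 next, and in BT474R 4, with EGF at 24 h and 12 h on top and overlapping. IGF1R in BT474 had 5, with T0 highest and HRG at 12 h lowest. FOXO1 in BT474 had 0 such pairs, FOXO4 in BT474 had 1, which set HRG at 12 h lowest, and PIK3IP1 in BT474R had 1.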

How the data were processed

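RNA-seq of 40 libraries was used. The authors trimmed reads with Trim Galore 0.6.6, aligned them to GRCh38.p13 and counted them per gene with featureCounts of Rsubread, and the deposited values are raw counts, neither normalized nor filtered. Annotation release, strand setting and handling of multi-mapping reads are not given in the sources used here. All 40 columns were assigned by the name in the sample's description.

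Per line, the 20 libraries were fitted in 1 edgeR 4.0.16 quasi-likelihood model (R 4.3.3) with a group for each treatment and time. Genes with at least 1 count in 50% of the libraries of a fit were tested: 25146 for BT474, 24287 for BT474R and 24641 with the lines together. The 5078 rows that repeat a name with a number were kept apart, and 0 members were among them. Lines were compared in 1 fit of 40. P-values were adjusted over all genes tested by Benjamini-Hochberg, and called means an adjusted p under 0.05. Log2 fold changes carry an SE from the F statistic and 95% intervals, and levels are CPM scaled by TMM over 40 libraries. The study's methods name DESeq2, which served here as an alternative (1.42.0). The scripts were tested on simulated data.

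All 8 members were eligible in every comparison, called or not, and uncalled ones are given mostly by range. From each list, up to 3 genes per direction and ligand comparison were eligible, those with the largest change among calls with a mean of at least 1 CPM and no overlap between groups. For each member, the 3 genes with the highest r were eligible. The members and lists were chosen with earlier results of these data known. The alternatives were DESeq2, its size factors in edgeR, filterByExpr, no filter, 2 replicate blocks, repeated names summed, other sets of libraries in the fit, and each library left out, which in the 40-library fit kept the genes and dispersion trend of the full fit. Values of some genes of the lists are not reported here.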

Additional observations from a re-analysis of the deposited data

Results flagged for a closer look

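Effects of a ligand that differed between times or between the lines, in a test of the difference itself, are collected here as differences of log2 fold changes, 12 between times and 7 between the lines. From 1 h to 12 h in BT474, the EGF effect rose for IRS1 (0.33) and fell for FOXO3 (−0.28), and the HRG effect rose for IRS1 (0.68) and fell for IGF1R (−0.39), IRS2 (−0.80), FOXO1 (−0.91), FOXO3 (−0.41) and FOXO4 (−1.16). From 12 h to 24 h the HRG effect on IRS1 in BT474 fell (−0.55). From 1 h to 12 h in BT474R, the EGF effect rose for IRS1 (1.02) and IRS2 (0.71), and the HRG effect for IRS1 (0.58). The EGF call for IRS1 in BT474 was lost without vehicle replicate 1 or EGF replicate 1 at 1 h or vehicle replicate 2 at 12 h (left-out range 0.31 to 0.35). The HRG call for IRS2 held only without vehicle replicate 1 or HRG replicate 2 at 1 h or HRG replicate 2 at 12 h (−1.16 to −0.54), and that for FOXO1 only without vehicle replicate 1 or HRG replicate 2 at 1 h or vehicle replicate 1 at 12 h (−1.0 to −0.84). The HRG call for IRS1 in BT474R held only without HRG replicate 2 at 1 h (0.52 to 0.68).

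Between the lines, BT474R minus BT474, the EGF effect differed for IRS1 at 12 h (0.67) and 24 h (1.00) and for IRS2 at 12 h (1.28) and 24 h (1.17). The HRG effect differed for IRS2 at 1 h (−0.69), IGF1R at 12 h (0.45) and FOXO4 at 12 h (0.84).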

How the results depend on the processing

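Of 312 tests of the 8 genes, 73 were called, 49 of them in every alternative and 38 also with any library of the groups compared left out, and no call changed direction. Of the 239 others, 28 passed in at least 1 alternative. Without a filter, calls rose from 2 to 4 for HRG against EGF in BT474, from 5 to 8 for the same in BT474R, from 3 to 6 for vehicle against T0 in BT474R, from 3 to 5 for changes with time in BT474R and from 3 to 5 for the HRG effect between the lines. With a replicate block within each time point, they were 4 and 8 for HRG against EGF in BT474 and BT474R and 1 for vehicle against T0 in BT474R. In 1 fit of both lines, HRG against EGF in BT474 had 1, and in fits of only the libraries compared, HRG against EGF in BT474R had 2 and changes with time in BT474R 5.

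With each library left out in turn, calls ranged from 19 to 22 for ligand against vehicle in BT474 and 9 to 16 in BT474R, 1 to 3 and 3 to 6 for HRG against EGF, 5 to 8 and 1 to 4 for vehicle against T0, and 6 to 11 and 2 to 3 for changes with time. They ranged from 6 to 7 for the lines at T0, 3 to 5 for the EGF effect between the lines and 2 to 5 for the HRG effect, where 5 came without BT474R HRG 24 h replicate 1. The FOXO-activated list had 64 to 71 calls in BT474 and 20 to 35 in BT474R, the PI3K, AKT and mTOR list 18 to 32 and 7 to 17, and the insulin and IGF list 27 to 36 and 14 to 22.

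Groups share replicate numbers, but nothing says that a number marks cultures grown together, and 2 numbers per group cannot establish it. Same-numbered deviations of groups of 1 line and time correlated by −0.241 to 0.536 (8 of 18 pairs over 0.1). All 6 of these pairs at 24 h were over 0.1 (0.111 to 0.536). Between the lines at 24 h, values ran from 0.0177 (vehicle in both) to 0.488 (HRG in both), so same-numbered deviations at 24 h went together across the lines too. Pairs of 1 line from different times reached 0.44 (24 of 72 over 0.1). HRG at 24 h in BT474 and HRG at 1 h in BT474R had 0.443. Such values thus also arose between groups of different times. Those at 24 h are a hint from the data and not from the design, and shared handling at 24 h was not tested. With the replicate block within each time point, 24 h ligand comparisons with no call passed for INSR with EGF in BT474 (0.19, adjusted p = 0.0373) and, in BT474R, for PIK3IP1 (−0.50, 0.00780) and FOXO3 (−0.43, 0.00583) with EGF and IRS2 with HRG (0.45, 0.0412), as did HRG against EGF for INSR (−0.24, 0.0392), PIK3IP1 (0.45, 0.0445) and FOXO3 (0.39, 0.0314). With a replicate block as 1 term, 21 of 48 ligand tests were called in BT474. Depth limits FOXO1 and IRS2 most, with 39 and 35 reads in their lowest BT474 library. Intervals rest on the spread within all groups of a fit, each of 2 libraries, with information shared across genes. They cover only this spread between replicate libraries.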
